A study of Mus musculus with 34 samples.

Results

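This account covers 34 genes for voltage-gated potassium (Kv) channels, of 48795 genes in the count table, in dorsal root ganglion (DRG) neurons of mice with and without the transcription factor ATF3. The members were taken by gene symbol: the Kv1, Kv2, Kv3, Kv4, Kv7 and Kv10 to Kv12 pore-forming genes, the cytoplasmic Kv beta subunits (Kcnab) and the silent subunits (Kcnf, Kcng, Kcns and Kcnv). This rule uses symbols and no measured value, but the members were chosen with earlier results of these data known. Each matched 1 row of the table, and all 34 had counts above 0 in all 34 libraries and passed the filter on low counts. The sensory ganglia L4, L5 and L6 were dissociated and neurons were enriched on 20% Percoll at 3 days after a crush of the left sciatic nerve, in mice 8 to 12 weeks old. The first genotype is the ATF3 conditional knockout (cKO): 8 mice, 5 female and 3 male, that carry Adv-Cre and are homozygous for floxed ATF3. The second is the ATF3 wt control: 6 female mice without Cre, of which 4 were heterozygous for floxed ATF3 and 2 were wt, and 3 male wt mice with Adv-Cre. Every mouse gave an injured library from the crushed side and a naive library from the other side, so the groups are 8 cKO injured, 9 wt injured, 8 cKO naive and 9 wt naive libraries, and a naive library comes from an animal with a nerve injury. Adv-Cre acts in sensory neurons, so other cells of a cKO ganglion keep ATF3. By the labels, in females, but not in males, all cKO mice and no control carried Cre.

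Kv channels open when the membrane depolarizes and let potassium leave the cell, which ends the action potential and limits how often a neuron fires. A channel is built from pore-forming subunits of 1 family. Kv beta subunits bind Kv1 channels from inside, and silent subunits form no channel alone but join Kv2 subunits and change how the channel gates. In sensory neurons Kv1 channels sit beside the nodes of myelinated axons, Kv4 and Kv1.4 carry the fast inactivating A-type current, Kv3 channels allow fast repolarization, and Kv7 channels carry the M-current near rest. Loss of potassium current after axotomy is a long-known feature of injured sensory neurons.

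Library totals ran from 35732193 to 77632944 counts, the lowest in the injured library of mouse wt-176. Levels are CPM, the count over the library's total after scaling with edgeR's TMM factors, and CPM per kb of exon is used where levels of different genes are compared. The injured library of wt-176 stood apart, as several values below show. Atf3 averaged 264 ± 59.6 CPM in cKO injured and 364 ± 145 CPM in wt injured libraries (SD, n = 8 and n = 9), and 119 ± 25.55 CPM in cKO naive and 125 ± 30.8 CPM in wt naive libraries. A whole-gene count also holds reads outside the floxed part and is no check of the deletion. The gene Avil, the gene whose control region drives Adv-Cre, was at 88.8 and 83.4 CPM in the injured and naive libraries of cKO-131, against 432.5 to 555.5 CPM in the other 20 Cre-positive libraries, and at 517 and 499 CPM in those of wt-150, against 792.5 to 1036 CPM in the other 10 Cre-negative libraries. The levels of wt-150 thus lay within the range of those 20 libraries labelled Cre-positive. For both mice the labelled groups were kept. Without these 2 mice 24 members were lower and 2 higher with injury in wt, beside 12.4% and 13.5% of all genes, and 8 were higher in cKO than in wt on the injured side, beside 3.76%. With all mice these counts were 23, 3 and 6.

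Stretches before the start of 4 members are shown because these genes carry the results below: Kcns1 and Kcna2 had the smallest p of the members that fell in wt, and Kcng4 and Kcnh5 had the smallest p of those whose injury effect differed between genotypes. RefSeq promoter windows (GRCm38.p6) matched 24 of the 34 members. Each sequence is the 250 bases before the RefSeq start, 5′ to 3′ on the gene's strand: Kcns1 at chr2:164171114-164171363 (minus strand), Kcna2 at chr3:107101317-107101566 (plus strand, before a RefSeq start that lies inside the longer GENCODE gene), Kcng4 at chr8:119635681-119635930 (minus strand) and Kcnh5 at chr12:75177333-75177582 (minus strand). Capitals mark the 5-base core of a cAMP response element (CRE), TGACG or its reverse complement CGTCA. ATF3 is a bZIP factor, a family known to bind CRE and AP-1 sequences.
Kcns1: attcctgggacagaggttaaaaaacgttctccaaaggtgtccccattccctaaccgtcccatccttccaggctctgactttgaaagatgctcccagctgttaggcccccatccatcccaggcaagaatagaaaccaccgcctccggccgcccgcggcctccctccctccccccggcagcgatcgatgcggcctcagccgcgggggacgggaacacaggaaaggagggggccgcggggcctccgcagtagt
Kcna2: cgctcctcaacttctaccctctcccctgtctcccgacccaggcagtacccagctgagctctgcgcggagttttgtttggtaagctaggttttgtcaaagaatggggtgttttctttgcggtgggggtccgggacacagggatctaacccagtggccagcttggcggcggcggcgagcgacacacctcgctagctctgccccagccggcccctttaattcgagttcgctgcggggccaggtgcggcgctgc
Kcng4: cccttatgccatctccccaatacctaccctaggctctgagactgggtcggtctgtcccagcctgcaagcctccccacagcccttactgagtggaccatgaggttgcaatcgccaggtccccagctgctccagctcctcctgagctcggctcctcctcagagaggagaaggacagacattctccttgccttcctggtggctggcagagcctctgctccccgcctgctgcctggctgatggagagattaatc
Kcnh5: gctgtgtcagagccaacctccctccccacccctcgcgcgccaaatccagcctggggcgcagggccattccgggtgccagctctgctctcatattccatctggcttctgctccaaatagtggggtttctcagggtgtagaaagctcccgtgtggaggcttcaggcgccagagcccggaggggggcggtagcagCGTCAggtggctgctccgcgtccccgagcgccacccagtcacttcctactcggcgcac

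The capitals in Kcnh5 begin at position -58 from the start, and the other 3 stretches hold none. The whole CRE, TGACGTCA, which contains the core, was in 0 of the 24 matched members. It was in 1.77% of the 27025 genes with a window and in 1.55% of all 32851 windows. The AP-1 motif TGANTCA was also in 0 members, and in 7.82% of genes and 6.75% of windows. With 24 members these counts of 0 are not shown to differ from such shares. The core TGACG was in 6 members, Kcna6, Kcnab2, Kcnc1, Kcnc4, Kcng3 and Kcnh5, where 19.8% of the 27025 genes with a window and 17.8% of windows held it. Both strands were searched in the 250 bases before the start. The 4 stretches are GC-rich, from 60.4% in Kcng4 to 65.6% in Kcnh5, where the median over all windows was 52.4%.

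In wt naive libraries the levels per exon length spanned a wide range. Kcnab2, the main Kv beta subunit of axonal Kv1 channels, was highest at 234 ± 30.6 CPM per kb (SD, n = 9). It was followed by the juxtaparanodal subunit Kcna1 at 53.9 ± 8.80, the A-type subunit Kcnd1 at 51.4 ± 3.47, Kcna2 at 46.2 ± 5.65 and Kcna6, another Kv1 pore subunit, at 40.8 ± 2.94 CPM per kb. From Kcna1 down to Kcna6 neighbours in this order lay within 1 SD bar of each other, and only Kcnab2 stood clear. Kcnb2, the delayed rectifier that silent subunits join, was at 27.5 ± 5.56, Kcnc4, which makes a fast A-type Kv3 channel, at 27.4 ± 4.51, and the erg channel gene Kcnh2 at 24.5 ± 3.71 CPM per kb. Among the silent subunits Kcns1 was highest at 19.6 ± 2.26 CPM per kb, and of the 2 Kv7 members Kcnq3 and Kcnq5 differed by less than their SDs, at 5.55 ± 1.06 and 5.22 ± 0.462 CPM per kb. The lowest of all was the elk channel gene Kcnh3 at 0.361 ± 0.0978 CPM per kb. Kcna3, Kcna5, Kcnab3, Kcnd2 and Kcnh8 were also under 1 CPM per kb in wt naive libraries.

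**Figure D1:**
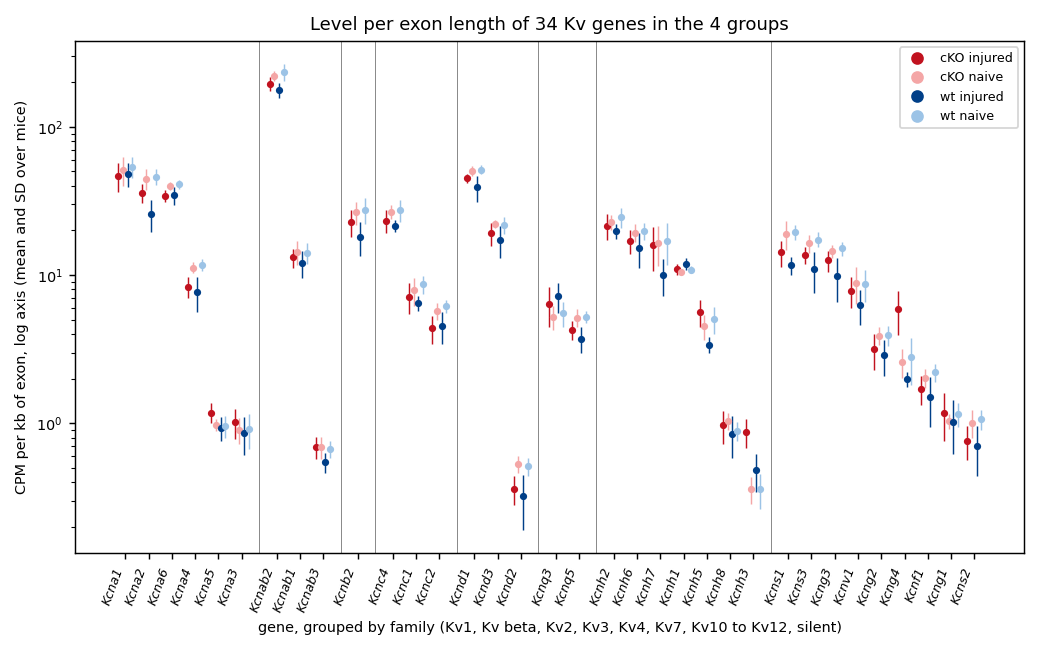
Mean level per exon length (CPM per kb, log axis) of each of the 34 genes in cKO injured, cKO naive, wt injured and wt naive libraries, with SD bars over mice (n = 8, 8, 9 and 9), grouped by family and ordered by the wt naive level. Kcnab2 lies above all other genes at 234 CPM per kb in wt naive libraries, and dark blue points (wt injured) lie below light blue points (wt naive) for most genes.

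The first comparison asked what a nerve crush does to these genes where ATF3 is intact. In wt mice 23 of 34 members were lower on the injured than on the naive side and 3 were higher at an adjusted p under 0.05 (edgeR's quasi-likelihood test, Benjamini-Hochberg over 19565 genes). Over all genes tested 12.7% were lower and 14.3% were higher. The median log2 fold change of the members was -0.41, beside 0.02 over all genes. In bulk RNA, fewer cells of a type and less RNA per cell cannot be told apart. All 3 Kv3 genes and all 3 Kv4 genes were among the fallers, as were Kcnb2, 7 of 9 silent subunits, 4 of 7 Kv10 to Kv12 genes, 3 of 6 Kv1 genes, 1 of 3 Kv beta genes and 1 of 2 Kv7 genes. Summed per exon length, the 34 genes gave 534 ± 50.7 CPM per kb in wt injured and 709 ± 45.2 CPM per kb in wt naive libraries, and the group ranges, 430.5 to 582 in wt injured and 634 to 772 in wt naive libraries, did not overlap. The cytoplasmic subunit gene Kcnab2 alone held 177 CPM per kb of the injured and 234 CPM per kb of the naive mean.

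Among Kv1 genes, Kcna2 (ENSMUSG00000040724, chr3:107101146-107115005), whose subunit keeps myelinated axons from firing repeatedly, had the largest fall. It had 131.5 CPM in the lowest, 328 in the median and 375 CPM in the highest wt injured library, against 474, 562 and 663 CPM in wt naive libraries. It fell by 0.84 on the log2 scale (SE 0.12, adjusted p 3.29e-06), and the 2 groups did not overlap although wt-176 lay far below the other injured libraries. Kcna4, which encodes the A-type subunit Kv1.4, known from small sensory neurons of rats, had 15.0, 38.2 and 45.2 CPM (lowest, median and highest) in wt injured against 48.6, 58.4 and 62.9 CPM in wt naive libraries. It fell by 0.61 on the log2 scale (SE 0.12, adjusted p 0.000332), again with no overlap. Kcna6 fell by 0.25 (SE 0.07, adjusted p 0.00501), the smallest called fall among the members, and its count is uncertain because 2355 exon bases lie opposite the antisense gene Gm26673. Kcna1, the usual partner of Kcna2, did not pass: its log2 fold change was -0.16 with a 95% interval of -0.40 to 0.08. Kcna3, best known from T cells, and Kcna5, known from heart muscle, were at -0.09 and -0.05 and did not pass.

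Of the Kv beta genes, Kcnab2 (ENSMUSG00000028931, chr4:152390742-152477871) had 789, 999.5 and 1150.0 CPM (lowest, median and highest) in wt injured against 1112, 1313 and 1670.0 CPM in wt naive libraries. It fell by 0.40 on the log2 scale (SE 0.08, adjusted p 0.000144), and 7 of 9 injured libraries lay below every naive one. Kcnab1 (-0.23, adjusted p 0.0931) and Kcnab3 (-0.29, adjusted p 0.0544) did not pass. With the mouse as a block both passed, at adjusted p 0.0113 and 0.0249, and Kcnab3 also passed with DESeq2 (adjusted p 0.0275), with median-ratio size factors (0.0403), and without cKO-130, cKO-131, wt-150, cKO-152, wt-155 or cKO-193 (0.0278 to 0.0440). With the share of ribosomal spacer reads, by the genes planned for it, as covariate their adjusted p was 0.0486 and 0.0415. Kcnb2 had 114, 299 and 337 CPM in wt injured against 324, 391 and 531 CPM in wt naive libraries, a fall of 0.60 on the log2 scale (SE 0.14, adjusted p 0.00150); 6 of 9 injured libraries lay below every naive one.

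The Kv3 genes Kcnc1, Kcnc2 and Kcnc4 fell by 0.42, 0.45 and 0.35 on the log2 scale, with adjusted p of 0.00772, 0.00734 and 0.00543. Among the A-type Kv4 genes Kcnd1 had 115, 224 and 236 CPM in wt injured against 254, 265 and 312 CPM in wt naive libraries. Its fall of 0.40 (SE 0.09, adjusted p 0.000572) came with no overlap of the groups. Kcnd3, a Kv4 gene known from small sensory neurons of rats, fell by 0.35 (adjusted p 0.0253). That call is lost without wt-139 (adjusted p 0.0565) or wt-172 (0.0668), and the gene shares 165 exon bases with its antisense gene. Kcnd2 fell by 0.67 (SE 0.18, adjusted p 0.00482) from the lowest level of the family, at a mean of 1.66 CPM in wt injured and 2.64 CPM in wt naive libraries. Of the M-current genes, Kcnq5 had 14.9, 29.5 and 33.7 CPM in wt injured against 35.8, 39.4 and 46.0 CPM in wt naive libraries. It fell by 0.49 (SE 0.10, adjusted p 0.000482) with no overlap, while the M-current partner Kcnq3 was called higher at 0.38 (SE 0.14, adjusted p 0.0445) and was higher on the injured side in 9 of 9 wt mice.

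The silent subunits made the largest group of fallers, with a median log2 fold change of -0.55 over 9 genes. Kcns1 (ENSMUSG00000040164, chr2:164163619-164171113), which in rats and humans has been tied to pain after nerve injury, had 25.0, 31.3 and 39.0 CPM in wt injured against 43.3, 51.9 and 63.3 CPM in wt naive libraries. It fell by 0.75 (SE 0.10, adjusted p 1.32e-06), the smallest p of all members, in 9 of 9 mice and with no overlap. Kcns3 had 13.2, 38.8 and 46.3 CPM in wt injured against 47.3, 53.8 and 67.5 CPM in wt naive libraries, a fall of 0.67 (SE 0.13, adjusted p 0.000283) with no overlap. Kcng3 had 11.6, 35.4 and 51.6 CPM in wt injured against 41.5, 51.3 and 57.7 CPM in wt naive libraries, a fall of 0.62 (SE 0.15, adjusted p 0.00172) with groups that overlapped. Kcns2, Kcnf1, Kcnv1 and Kcng2 fell by 0.61, 0.55, 0.47 and 0.45, and without wt-172 the adjusted p of Kcnf1, Kcnv1 and Kcng2 was 0.0535, 0.0617 and 0.0611. Kcng1 (-0.19, adjusted p 0.471) and Kcng4 (-0.48, adjusted p 0.0543) did not pass. Kcng4 passed in wt when cKO-130, cKO-131, cKO-152 or wt-176 was left out, at adjusted p of 0.0434, 0.0242, 0.0490 and 0.0223. With all mice it passed by DESeq2 (adjusted p 0.0326) and with median-ratio size factors (0.0476), but not with the mouse as a block (0.0664).

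The Kv10 to Kv12 genes went both ways. Kcnh7, an erg channel gene, fell by 0.76 (SE 0.18, adjusted p 0.00201); its exons lie opposite 696 exon bases of Gca, so its count is uncertain. Kcnh5, the EAG gene Kv10.2, had 12.0, 13.4 and 17.8 CPM in wt injured against 13.4, 21.2 and 25.2 CPM in wt naive libraries, and fell by 0.56 (SE 0.13, adjusted p 0.00106) in 9 of 9 mice. The erg genes Kcnh2 and Kcnh6 fell by 0.31 (adjusted p 0.0164) and 0.39 (adjusted p 0.0198). Their calls were lost without wt-146 for Kcnh2 (adjusted p 0.0539) and without wt-139 or wt-176 for Kcnh6 (adjusted p 0.0549 and 0.0668). Kcnh1, the other EAG gene, and Kcnh3 were called higher at 0.13 (SE 0.05, adjusted p 0.0469) and 0.42 (SE 0.15, adjusted p 0.0368), and the elk gene Kcnh8 was at -0.08 and did not pass. In wt 8 of 9 mice had more Kcnh1, 7 of 9 more Kcnh3 and 9 of 9 more Kcnq3 on the injured side. The calls of Kcnh1, Kcnh3 and Kcnq3 were lost in 11, 7 and 13 of the 17 fits that leave out 1 mouse, with adjusted p of up to 0.224, 0.172 and 0.153, each reached without wt-176. With the mouse as a block, all 3 passed at adjusted p of 0.0239, 0.0345 and 0.000782.

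Shared exon bases also make other counts uncertain: Kcng2, Kcnq5, Kcnab1 and Kcnab3 lie opposite 272, 237, 201 and 147 exon bases of other genes, Kcnab2 shares 125 with Gm16334 on its own strand, and Kcnh3 shares 1 with Mcrs1.

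**Figure D2:**
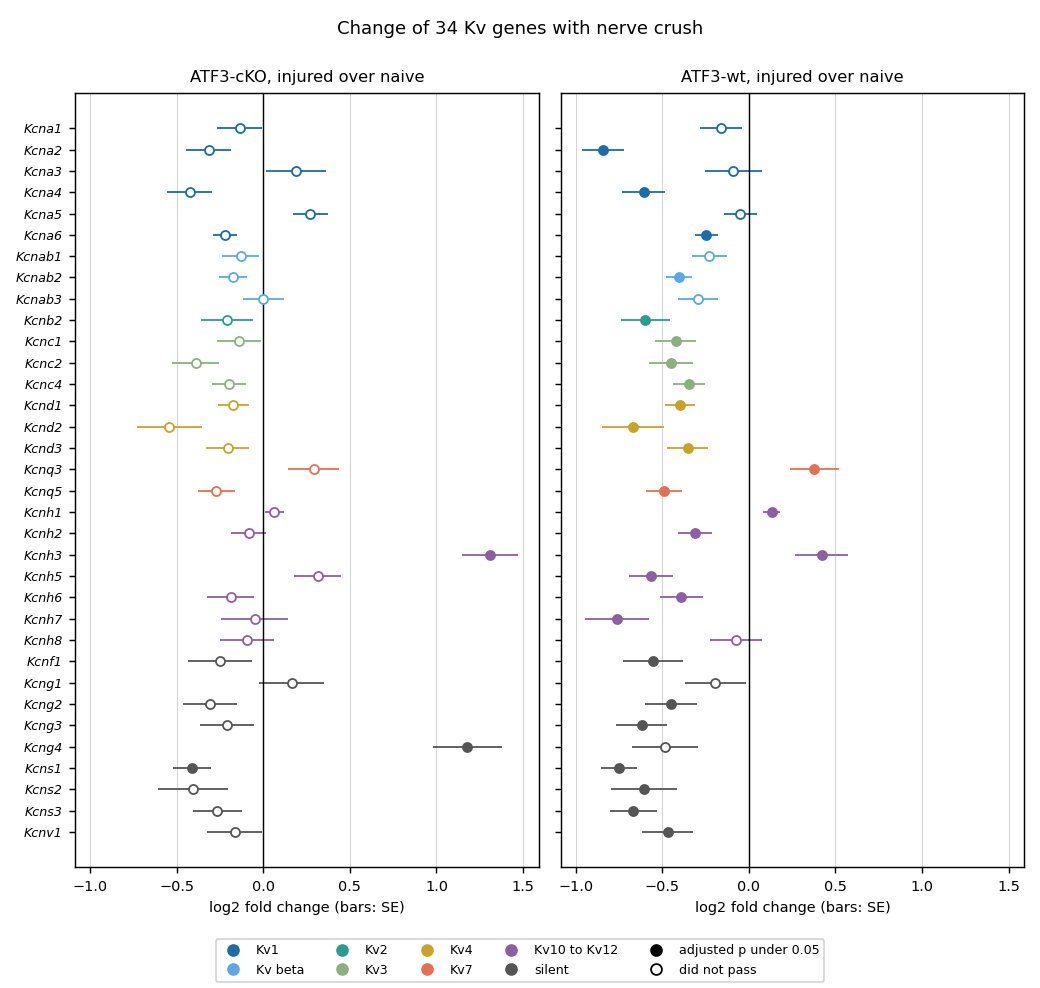
Log2 fold change of injured over naive (x axis, bars show the SE) for each of 34 genes (y axis, coloured by family), in ATF3-cKO mice (left, n = 8) and ATF3-wt mice (right, n = 9). Filled points passed an adjusted p under 0.05, 23 lower and 3 higher in wt, against 1 lower and 2 higher in cKO.

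The second comparison asked what the crush does where sensory neurons lack ATF3. In cKO mice 1 of 34 members, Kcns1, was lower and 2, Kcnh3 and Kcng4, were higher on the injured side, where 0.583% of all genes were lower and 2.61% were higher. At an unadjusted p under 0.05, 8 members were lower and 4 higher, beside 5.77% and 7.47% of all genes. DESeq2 called 4 lower and 2 higher, beside 1.2% and 3.12%. With the mouse as a block, which uses that both libraries come from 1 animal, the calls were 4 lower (Kcna4, Kcna6, Kcnab2 and Kcns1) and the same 2 higher, beside 3.62% and 4.77% of all genes. Without wt-176, a mouse outside the cKO group, 6 members were lower, beside 1.46% of all genes. These were Kcns1, Kcna2, Kcna4, Kcna6, Kcnc2 and Kcnd2, of which Kcna2 had an adjusted p of 0.0401 and Kcna4 of 0.00212. The median log2 fold change of the members in cKO was -0.17, beside 0.02 over all genes. Summed per exon length the members gave 603 ± 50.04 CPM per kb in cKO injured and 679 ± 56.9 CPM per kb in cKO naive libraries, and these ranges, 539 to 683 in injured and 556 to 742 in naive libraries, overlapped. Kcnab2 alone held 195.5 and 220.9 CPM per kb of these means.

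Kcnh3 (ENSMUSG00000037579, chr15:99224861-99242817), an elk channel subunit known from forebrain neurons, had 3.22, 5.11 and 6.43 CPM (lowest, median and highest) in cKO injured against 1.59, 2.05 and 2.61 CPM in cKO naive libraries. On the log2 scale it rose by 1.31 (SE 0.16, adjusted p 1.11e-06), in 8 of 8 mice and with no overlap of the groups. Kcng4 (ENSMUSG00000045246, chr8:119623854-119635680), the silent subunit Kv6.4, had 8.96, 25.0 and 30.6 CPM in cKO injured against 6.48, 9.58 and 13.7 CPM in cKO naive libraries, a rise of 1.18 on the log2 scale (SE 0.20, adjusted p 0.000207). It was higher on the injured side in 7 of 8 mice, and 7 of 8 injured libraries lay above every naive one. The exception was cKO-131, at 8.96 CPM injured and 9.02 CPM naive, a mouse whose Avil level also differed from the other Cre-positive mice.

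Kcns1 had 27.0, 39.8 and 51.5 CPM in cKO injured against 29.9, 51.7 and 70.6 CPM in cKO naive libraries, a fall of 0.41 (SE 0.11, adjusted p 0.0278). That call was lost without cKO-194 (adjusted p 0.0518), cKO-163 (0.0816), cKO-152 (0.105), cKO-130 (0.125) or cKO-156 (0.135). Kcna4 had 31.0, 39.9 and 53.2 CPM in cKO injured against 49.7, 52.5 and 62.2 CPM in cKO naive libraries, and 7 of 8 injured libraries lay below every naive one. Its log2 value was -0.43 (SE 0.13, adjusted p 0.0718; with the block -0.44, adjusted p 0.0374). Kcna6 had 178, 201 and 227.1 CPM in cKO injured against 223, 235 and 257 CPM in cKO naive libraries, at -0.22 (SE 0.07, adjusted p 0.0812; with the block 0.0289). Kcnd2 was at -0.54 (adjusted p 0.133), yet all 8 injured libraries, at 1.115 to 2.33 CPM, lay below all 8 naive ones, at 2.40 to 3.28 CPM. Kcnab2 was at -0.18 (adjusted p 0.327; with the block 0.0227). Kcna2 was at -0.31 (adjusted p 0.240), lower on the injured side in 8 of 8 mice. Kcna5 was at 0.27 (adjusted p 0.176) and Kcnh5 at 0.31 (adjusted p 0.273).

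**Figure D3:**
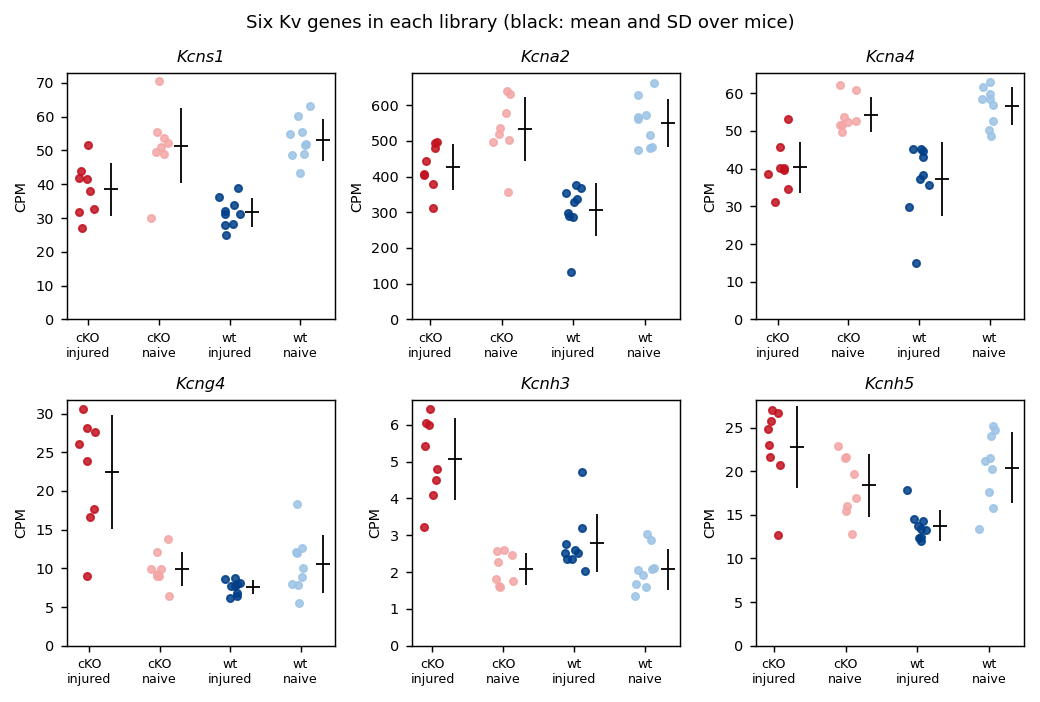
CPM of Kcns1, Kcna2, Kcna4, Kcng4, Kcnh3 and Kcnh5 in each library of the cKO injured, cKO naive, wt injured and wt naive groups (1 point per mouse, 8, 8, 9 and 9), with mean and SD in black. Kcng4 in cKO injured libraries reached 30.6 CPM, and its lowest point, 8.96 CPM in cKO-131, lay above every wt injured library.

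The third comparison set cKO against wt on the injured side. Of 34 members 6 were higher in cKO (Kcna2, Kcna5, Kcng4, Kcnh3, Kcnh5 and Kcnh7), where 3.57% of all genes were higher. None was lower at that threshold, where 7.55% of all genes were lower. At an unadjusted p under 0.05, 13 members were higher and 1, Kcnh1, was lower, beside 10.2% and 13.5% of all genes. DESeq2 called 7 higher and 0 lower, beside 4.52% and 8.15%. Of the 34 log2 values 29 were above 0, with a median of 0.19 beside 0.02 over all genes. This comparison shares the injured libraries with the injury effects above, so it is no second test of them. Summed per exon length the members gave 603 ± 50.04 CPM per kb in cKO injured and 534 ± 50.7 CPM per kb in wt injured libraries, with overlapping ranges. Kcnab2 alone held 195.5 and 177.3 CPM per kb of these means.

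Kcng4 had 8.96, 25.0 and 30.6 CPM in cKO injured against 6.11, 7.76 and 8.69 CPM in wt injured libraries, which is 1.575 higher on the log2 scale (SE 0.20, adjusted p 7.49e-07). The 2 groups did not overlap. Kcnh3 had 3.22, 5.11 and 6.43 CPM in cKO injured against 2.04, 2.52 and 4.72 CPM in wt injured libraries, at 0.91 (SE 0.15, adjusted p 9.32e-05). The highest wt library, wt-176, lay among the cKO libraries. Kcnh5 had 12.7, 23.9 and 27.0 CPM in cKO injured against 12.0, 13.4 and 17.8 CPM in wt injured libraries, at 0.72 (SE 0.13, adjusted p 0.000234), and every cKO library but that of cKO-131 lay above every wt one.

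Kcna2 had 311, 426 and 496 CPM in cKO injured against 131.5, 328 and 375 CPM in wt injured libraries, at 0.47 (SE 0.12, adjusted p 0.0108). Its means were 427 CPM in cKO injured, 307 CPM in wt injured and 550.0 CPM in wt naive libraries. Kcna5 had 2.65, 3.33 and 4.38 CPM in cKO injured against 2.03, 2.59 and 3.41 CPM in wt injured libraries, at 0.37 (SE 0.10, adjusted p 0.01225). Kcnh7 had 134, 223 and 339 CPM in cKO injured against 72.6, 168 and 213 CPM in wt injured libraries. It averaged 242 ± 80.01 CPM in cKO injured and 153 ± 43.4 CPM in wt injured libraries, at 0.64 (SE 0.19, adjusted p 0.0208), and lost its call without cKO-152 (adjusted p 0.0632). In a fit of injured libraries only, Kcna2, Kcna5 and Kcnh7 did not pass (adjusted p 0.0761, 0.0692 and 0.0570), and Kcng4, Kcnh3 and Kcnh5 did. Kcnab3 and Kcns1 missed the threshold in the whole set at 0.34 (adjusted p 0.0603) and 0.28 (adjusted p 0.0941), and both passed without cKO-131, at adjusted p 0.0162 and 0.00944. Kcnab3 also passed by DESeq2 (adjusted p 0.0324) and with the planned share of ribosomal spacer reads as covariate (0.0431). It passed as well without cKO-130 (adjusted p 0.0461), wt-155 (0.0349) or wt-176 (0.0480).

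On the naive side 0 members and 0% of all genes differed between cKO and wt by edgeR's quasi-likelihood test. At an unadjusted p under 0.05 there were 0 members and 506 genes (2.59%), and DESeq2 called 0 members and 1 gene (0.00511%). The 5 members with the smallest p were Kcnh8 (0.21, 95% interval -0.09 to 0.51), Kcnh1 (-0.06), Kcnh5 (-0.16), Kcnc1 (-0.15) and Kcnab2 (-0.09), all with an adjusted p of 0.9999. Kcnab2 had 1011, 1247 and 1347 CPM in cKO naive against 1112, 1313 and 1670.0 CPM in wt naive libraries, and Kcnh8 had 3.73, 4.78 and 5.71 CPM in cKO naive against 2.84, 4.20 and 4.74 CPM in wt naive libraries. Kcnh1 had 68.0, 77.7 and 78.8 CPM in cKO naive against 72.9, 80.2 and 85.9 CPM in wt naive libraries. Kcnc1 had 45.7, 77.1 and 97.8 CPM in cKO naive against 65.1, 80.8 and 97.9 CPM in wt naive libraries. Kcnh5 had 12.8, 18.3 and 22.9 CPM in cKO naive against 13.4, 21.2 and 25.2 CPM in wt naive libraries, and all these groups overlapped. For Kcng4 the naive levels were 6.48, 9.58 and 13.7 CPM in cKO and 5.52, 10.0 and 18.3 CPM in wt, with a log2 difference of -0.09 and an interval of -0.47 to 0.29. The interval of Kcnh3 was -0.29 to 0.33 and that of Kcnh5 -0.415 to 0.10. Each of these intervals ends below the injured-side value of its gene, which does not show equal naive levels.

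**Figure D4:**
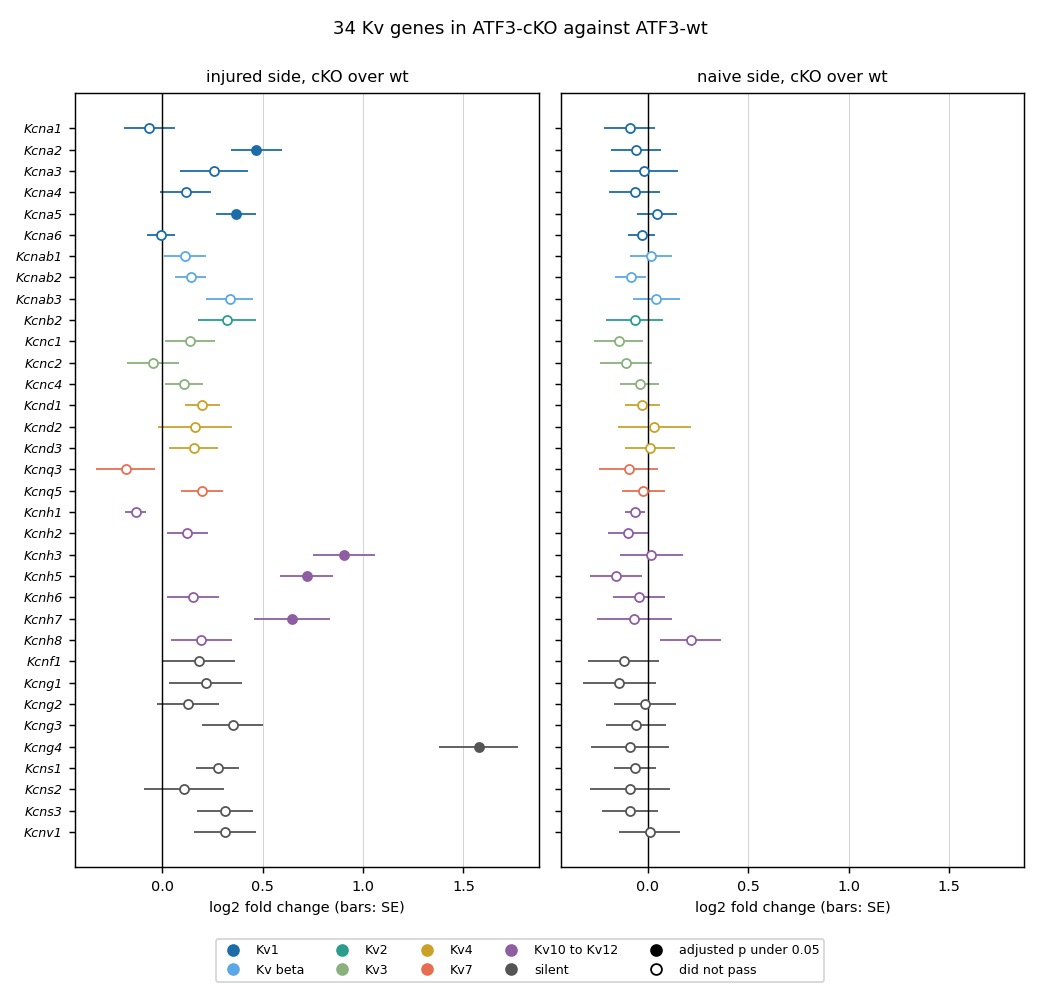
Log2 fold change of cKO over wt (x axis, bars show the SE) for each of 34 genes (y axis, coloured by family), on the injured side (left, 8 against 9 mice) and on the naive side (right, 8 against 9 mice). Filled points passed an adjusted p under 0.05, 6 on the injured side and 0 on the naive side; Kcng4 reached 1.575 on the injured side.

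The difference of the injury effects, cKO minus wt, tests the genotypes against each other directly. Its value was above 0 for 31 of 34 members and below 0 for 3, with a median of 0.23 beside 0.01 over all genes. It passed above 0 for 3 members, Kcng4, Kcnh5 and Kcnh3, where 0.695% of all genes did, and below 0 for 0 members with edgeR, where 2.15% did. At an unadjusted p under 0.05 there were 9 members above and 0 below 0, beside 5.56% and 7.55% of all genes. DESeq2 called 3 above and 0 below, beside 1.31% and 2.86%. Kcng4 differed by 1.66 (SE 0.27, adjusted p 0.000373): it went up with injury in cKO mice and had a negative log2 value in 8 of 9 wt mice, wt-176 being the other. Kcnh5 differed by 0.88 (SE 0.19, adjusted p 0.00532), with a higher injured library in 7 of 8 cKO mice and in 0 of 9 wt mice. Of those 7 mice cKO-156 was almost level, at 22.95 CPM injured and 22.93 CPM naive. The Kcnh5 rise in cKO alone, 0.31, did not pass (adjusted p 0.273). Kcnh3 differed by 0.89 (SE 0.22, adjusted p 0.0197), and that call was lost without wt-139 (adjusted p 0.0571) or cKO-163 (0.0614). With the mouse as a block 6 members were called, beside 3.25% of all genes. The 3 added were Kcna2 (0.56, adjusted p 0.0290), Kcnab2 (0.22, adjusted p 0.0381) and Kcnh7 (0.70, adjusted p 0.00624), which without the block had values of 0.53, 0.23 and 0.71 and adjusted p of 0.114, 0.381 and 0.176. For the other 28 members the fit without the block and the fit with it gave no called difference, so their larger number of calls in wt than in cKO is not shown to be a difference between genotypes.

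Between mice the members did not move by equal amounts. In cKO mice the median log2 injured to naive ratio over the 34 genes ran from -0.28 to -0.02, with a middle value of -0.16, and 18 to 27 genes were below 0. In wt mice it ran from -1.03 to -0.16, with a middle value of -0.31, and 25 to 31 genes were below 0. Over all genes the same medians stayed between -0.01 and 0.08. Most extreme was wt-176 at -1.03; its Kcnd2 ratio was -2.77, and its Kcna1, Kcna5, Kcng4, Kcnh1, Kcnh2, Kcnh3 and Kcnq3 ratios were above 0. Of the members 18 were lower in every wt mouse, where 10.8% of all genes were, and 6 were lower in every cKO mouse (Kcna2, Kcna6, Kcnab2, Kcnb2, Kcnd2 and Kcns3), where 4.44% of all genes were.

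**Figure D5:**
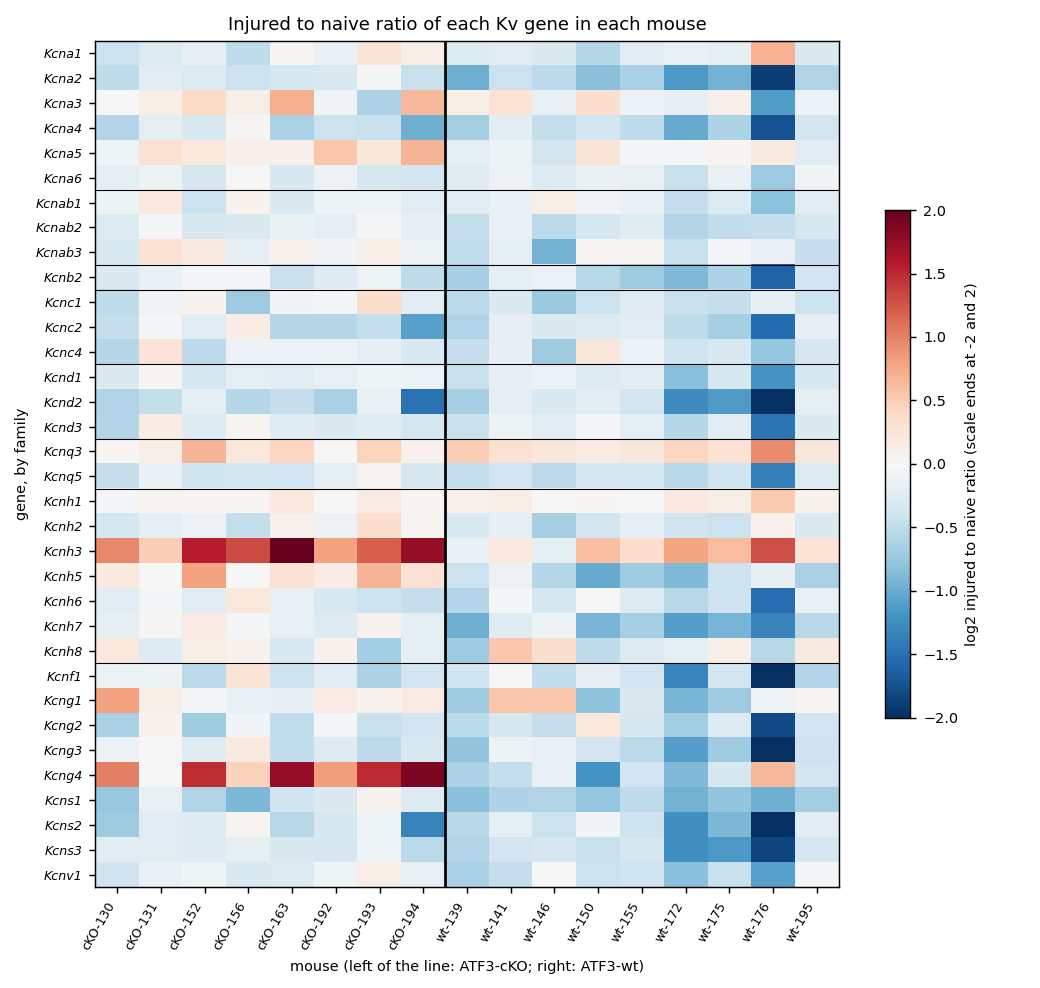
Log2 injured to naive ratio (colour, scale ends at -2 and 2) of each gene (rows, by family) in each mouse (columns; 8 ATF3-cKO left of the line, 9 ATF3-wt right). The Kcnh3 and Kcng4 rows are red in cKO mice, with a Kcng4 ratio of -0.01 in cKO-131, and the wt-176 column holds the deepest blue cells.

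Other potassium channel genes and partners were counted for comparison. Of 11 tested auxiliary subunits of Kv channels 8 fell and 0 rose in wt; the smallest p were those of Dpp6 (-0.34) and Kcnip1 (-0.63), partners of Kv4 channels. In cKO 0 passed with edgeR, with 4 lower at an unadjusted p under 0.05 and 0 by DESeq2, and 1 was lower with the mouse as a block. Kcnip1 was higher in cKO than in wt injured libraries at 0.46 (SE 0.10, adjusted p 0.00292). Of 13 juxtaparanode and scaffold genes 6 fell and 1 rose in wt. Lgi3, a secreted Kv1 partner, fell most at -0.88, and was higher in cKO than in wt injured libraries at 0.60 (adjusted p 0.00321). Of 11 inward rectifier genes 6 fell, led by Kcnj11 (-0.82), a subunit of the ATP-sensitive channel. Of 11 calcium- and sodium-activated channel genes 7 fell, among them Kcnn2 (-0.64), and 1 rose, the BK subunit Kcnmb4 (0.84). Of 4 HCN genes 2 fell, Hcn2 (-0.47) and Hcn4 (-0.26). These counts stand beside the 12.7% of all genes that fell in wt. Calls of cKO against wt on the injured side went both ways in these lists. There 1 scaffold gene was lower and 2 were higher in cKO. Of the calcium- and sodium-activated channel genes 1 was lower and 0 were higher, and of the auxiliary subunits 0 and 1. No inward rectifier or HCN gene passed. Of all genes 7.55% were lower and 3.57% were higher. In cKO Kcnn2 was lower at -0.42 (adjusted p 0.0451) and Kcnmb4 higher at 0.44 (adjusted p 0.0342). In cKO 0 scaffold, inward rectifier and HCN genes passed with edgeR; 2, 5 and 1 of them had an unadjusted p under 0.05, and DESeq2 called 1, 1 and 0. With the mouse as a block 2 scaffold, 2 inward rectifier and 1 HCN gene were lower in cKO and 1 inward rectifier gene was higher.

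Of 13 two-pore channel genes 3 fell and 1 rose in wt, and 1 fell in cKO, Kcnk13 (-0.33, adjusted p 0.0351). On the injured side 3 of them were lower and 1 was higher in cKO than in wt. The wt riser was Kcnk16, a background channel known from pancreatic islets, with 1.16, 2.93 and 8.76 CPM (lowest, median and highest) in wt injured against 0.0193, 0.0727 and 0.231 CPM in wt naive libraries. On the log2 scale this was 5.28 higher (SE 0.42, adjusted p 2.85e-11). In cKO it had 0.0706, 0.125 and 0.162 CPM in injured against 0.0391, 0.121 and 0.175 CPM in naive libraries, from 58 and 55 counts in all, and a log2 value of 0.07. The difference of the 2 effects was -5.21 (SE 0.65, adjusted p 7.21e-06), opposite in sign to those of Kcng4, Kcnh5 and Kcnh3. Of 6 regulators reported for Kv genes in sensory neurons 1 passed in wt, the repressor Rest, higher at 0.40 (SE 0.12, adjusted p 0.0148). Rest was at 0.22 in cKO (adjusted p 0.509) and at -0.01 in cKO against wt on the injured side.

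Markers of cell types moved beside these genes. Summed over 10 C-fibre nociceptor markers, libraries held 3255 to 4867 CPM in cKO injured and 1534 to 4393 CPM in wt injured, and 4359 to 5015 CPM in cKO naive and 4266 to 5105 CPM in wt naive. Of these markers 6 fell and 1 rose in wt. This and the counts in wt that follow stand beside 12.7% of all genes that fell and 14.3% that rose. Of 10 A-fibre markers 3 fell and 1 rose, with sums of 2275 to 4827 CPM in cKO injured, 3167 to 4147 CPM in wt injured, 2561 to 5137 CPM in cKO naive and 3242 to 5058 CPM in wt naive libraries. Of 8 pan-neuronal markers 2 fell and 2 rose, with sums of 6447 to 8554 CPM in cKO injured, 7039 to 10790 CPM in wt injured, 6027 to 8166 CPM in cKO naive and 6512 to 8111 CPM in wt naive libraries. Of 10 macrophage markers 8 rose in wt and 0 in cKO by edgeR and DESeq2, with 0 at an unadjusted p under 0.05 in cKO. Their sums were 12.3 to 57.8 CPM in cKO injured, 25.5 to 70.2 CPM in wt injured, 11.9 to 39.2 CPM in cKO naive and 3.39 to 25.6 CPM in wt naive libraries. Satellite glia had 1 riser of 8, Glul (0.66), and T cells 1 of the 2 markers tested. No Schwann cell, fibroblast, endothelial or muscle marker passed in wt with edgeR, where 1 Schwann cell marker had an unadjusted p under 0.05, or with DESeq2; 1 Schwann cell marker was higher with the mouse as a block. With the mouse as a block the wt counts were 8 lower and 1 higher for C-fibre, 5 lower and 1 higher for A-fibre and 2 lower and 4 higher for pan-neuronal markers, with 10 macrophage and 3 satellite glia markers higher. That fit called 3931 lower and 4072 higher of all 19565 genes in wt. In cKO 1 C-fibre marker fell and 1 A-fibre marker rose, and with the mouse as a block 2 pan-neuronal markers were also lower and 2 satellite glia markers higher. Of all genes 0.583% were lower and 2.61% higher in cKO, and 3.62% and 4.77% with the block. Between cKO and wt on the injured side 5 of 10 macrophage markers, 1 pan-neuronal, 1 C-fibre and 1 T cell marker and Glul (-0.68) were lower in cKO, and 1 A-fibre marker was higher. Of all genes 7.55% were lower and 3.57% higher there, so a single called marker of a list is not shown to differ from these shares. No marker of any list was at 0 throughout a group. The part of these cell type markers in the changes of the Kv genes was not tested.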

How the data were processed

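Total RNA of neuron-enriched ganglia was sequenced with paired ends from a stranded kit, per the labels' protocols. The authors deposited raw counts per gene, made with bcl2fastq 2.20, STAR (GRCm38) and HTSeq, per the submitters' processing notes; the annotation release and strand mode were not given in the sources used here. Overlapping genes therefore have uncertain counts. Of 48795 gene IDs 48349 had a symbol. The main test was edgeR's quasi-likelihood F-test (version 4.0.16, R 4.3.3), robust, with TMM factors and sex as covariate, fitted once to the 4 groups of 34 libraries. The filterByExpr filter kept 19565 genes, which hold 99.97% of counts. Calls use an adjusted p under 0.05 (Benjamini-Hochberg over all genes); an SE is the log2 fold change over the square root of F. Ratios by mouse use log2 CPM with a prior count of 2. The fit was tested on data simulated with a dispersion of 0.05 and known changes with injury in wt. It called 40% of 100 changes of 1.5-fold and 91% of 100 changes of 2-fold, with 7 false calls among 19326 genes. Smaller changes can therefore go uncalled. The simulated libraries were independent, with no mouse effect, and only the injury effect in wt was changed. Recovery of changes with injury in cKO or of differences between injury effects was not measured. DESeq2 1.42.0 was an alternative.

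Replicates are separate mice. Both libraries of a mouse are paired by the animal: their deviations from the group means correlated with a median r of 0.501 over 17 pairs (0.00976 to 0.761, over 0.1 in 16). No 2 libraries of a group agreed within sampling noise: the lowest chi-square was 9.3 for each degree of freedom. The members and lists were chosen with earlier results of these data known. Named for each comparison are the 10 (wt injury) or 5 members of smallest p, the highest member of each family, and at most 3 called genes of each other list; further members are given by value or count.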

Additional observations from a re-analysis of the deposited data

Results flagged for a closer look

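In 15 of 136 groups of 8 or 9 libraries tested, 1 per member and group, 1 library lay far from the others. Chance flags about 1 in 20 groups. The members were measured in the same libraries, so the flags are not independent and this rate is no test of their number. The injured library of wt-176 was lowest of its group for Kcna2 (131.5 CPM, next 286 CPM), Kcnb2 (113.8, next 232.8), Kcnd3 (75.37, next 142.6) and Kcnq5 (14.93, next 27.8), and highest for Kcnh3 (4.719, next 3.19). That of wt-139 was highest for Kcnh5 (17.81 CPM, next 14.5). Mouse cKO-131 was lowest for Kcnh5 (12.68 CPM, next 20.7) and highest for Kcnh6 (84.92, next 66.1) on its injured side, and lowest for Kcnab2 (1011 CPM, next 1196), Kcnab3 (1.252, next 1.85) and Kcnh1 (67.99, next 75.6) on its naive side. The injured library of cKO-130 was highest for Kcng1 (9.669 CPM, next 5.45). On the naive side wt-150 was lowest for Kcnd3 (145.2 CPM, next 197) and highest for Kcng1 (7.555, next 5.75), and wt-146 was highest for Kcng2 (15.86, next 12.4).

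The injury effect differed between cKO and wt mice, by the interaction term of the edgeR fit, for Kcng4 (1.664 on the log2 scale), Kcnh5 (0.8773) and Kcnh3 (0.8873).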

How the results depend on the processing

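No called direction was reversed by any setting run. In the order wt lower and higher, cKO lower and higher, cKO over wt on the injured side, and difference of effects (all of members), the main counts were 23, 3, 1, 2, 6 and 3, and leaving out 1 mouse at a time gave 19 to 25, 0 to 3, 0 to 6, 2, 5 to 8, and 2 to 3. The 6 came without wt-176. Counted over all genes, leaving out 1 mouse gave 1931 to 2981 wt lower and 2218 to 3003 wt higher calls. Only 1.5-fold or larger moves follow. The wt rises numbered 1 with median-ratio size factors, 2 with DESeq2 and 0 with no low-count filter or no sex term, and the fit with no sex term also gave 0 cKO lower calls. DESeq2 gave 4 cKO lower calls. The replicate block, which pairs the libraries of a mouse, gave 4 cKO lower calls and 6 differences. It moved no other of these counts by over 1.5 times (wt 25 and 3, cKO higher 2) and cannot be fitted between genotypes. With the block the calls over all 19565 genes also grew, to 3931 lower and 4072 higher in wt (2494 and 2789 in the main fit). Injured libraries alone gave 3 members higher in cKO. Females alone gave 13, 0, 0, 1, 2 and 0, and males alone 4, 0, 0, 1, 3 and 0. Both hold fewer mice, and over all genes the wt lower calls numbered 1310 in females and 222 in males (2494 with all mice). Genes higher in cKO than in wt on the injured side numbered 122 and 31 (698 with all mice). Differences above 0 numbered 2 and 0 (136 with all mice). Ribosomal spacer reads were 5.02% to 20.03% of counts. The planned split by their share could not be made, since no library passed 12% with the planned genes (highest 11.34%), and a further spacer gene was added after seeing the data. With it, the 6 mice under 12% gave 17, 1, 2, 2, 7 and 0, and the 11 above gave 13, 0, 0, 1, 2 and 0. In these sets the wt lower calls over all genes numbered 2053 and 1404, and the differences above 0 numbered 3 and 7. As covariate the share gave 2 cKO lower calls and 3 differences, and the planned share 2 and 4. Without cKO-131 and wt-150, 2 rises in wt were left. On the naive side every fit called 0 members. The lowest count of a member in a library was 13, for Kcnd2.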
